A study of Arabidopsis thaliana with 6 samples.

Results

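A set of 11 probe sets read low in RNA of sorted Arabidopsis root cells and brightly in RNA of whole roots. They were chosen from the measured values, by a rule that asked for a signal under 60 on all 3 sorted-cell arrays and of at least 500 on all 3 whole-root arrays. Of 22746 probe sets other than controls, 18 met both thresholds, and 7 of these were left out by gene name, which left 11 members. The platform annotation pairs 3 of the 11 with 1 gene each, AT1G68850, AT1G49960 and AT2G30600. The other 8 are not listed there and are called by their probe set names. They are unnamed here, not without a gene. Leaving out by gene name could not act on these 8, so some may be genes that the rule removes.

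The sorted cells (3 arrays) were protoplasts of whole roots, all of them collected after passage through a fluorescence-activated cell sorter. The whole roots (3 arrays) were harvested intact. All 6 samples came from Columbia seedlings 6 days after germination that had been moved for 24 hours to medium with 0.3 mM of the iron chelator ferrozine in place of ferrous sulfate, so no sample of this study was iron-sufficient. The study asked how protoplasting and sorting affect the expression of genes that respond to iron deficiency. No label says that the replicates were grown or sorted separately, so the p-values reflect the scatter of these 6 samples alone, and that scatter may be technical.

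Protoplasting digests the cell walls and releases single cells, which are then handled in solution before their RNA is taken. In bulk samples like these, fewer cells of a type and less RNA per cell cannot be told apart. AT1G68850 codes for a class III peroxidase, one of a large plant family of secreted enzymes that use hydrogen peroxide to cross-link or loosen wall polymers. AT1G49960 codes for a transporter of the nucleobase-ascorbate family of membrane proteins, and AT2G30600 for a protein with a BTB/POZ domain, a fold through which proteins bind each other, often as adaptors of ubiquitin ligases.

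The values are MAS5 signal intensities on a linear scale, and the number of arrays limits their precision. Across the 13647 probe sets tested, which do not count as replicates, the correlation of log2 values was 0.876 to 0.948 between sorted-cell arrays and 0.966 to 0.974 between whole-root arrays. The background level of an array was taken as the highest signal among 27 probe sets for bacterial control genes. It stood at 57.4, 36.3 and 14.3 on sorted-cell replicates 1, 2 and 3, and at 16.8, 11.8 and 10.4 on the whole-root arrays. Hybridisation controls, bacterial and phage sequences added in fixed amounts to the hybridisation mix, averaged 2310, 1413 and 853 on the sorted-cell arrays and 436, 467 and 476 on the whole-root arrays (geometric mean of 18 probe sets). For the actin control, the 3′ probe set exceeded the 5′ probe set on the log2 scale by 5.53, 4.09 and 3.37 on the sorted-cell arrays and 1.60, 1.61 and 1.85 on the whole-root arrays. Both kinds of control differed between the groups without overlap, and their part in the low signals of the members was not tested.

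Among the 3 annotated members, AT1G68850 read 36.5, 18.8 and 14.5 in sorted cells and 677, 562 and 625 in whole roots. AT1G49960 read 42.6, 37.3 and 17.8 in sorted cells and 580.0, 554 and 565 in whole roots. In both genes sorted-cell replicate 1 was the highest of its group and replicate 3 the lowest. The background levels of these arrays fell in the same order, so nothing is read from it. The peroxidase stood at -4.85 (SE 0.33) and the transporter at -4.22 (SE 0.32) on the log2 scale, sorted cells minus whole roots. Of 3 sorted-cell arrays, 1 read above the background level for AT1G68850 and 2 for AT1G49960, so these sizes are imprecise. AT2G30600, by probe set 267524_at, read 38.2, 30.6 and 35.8 in sorted cells and 601, 551 and 666 in whole roots, a log2 difference of -4.12 (SE 0.20). Only 1 of its 3 sorted-cell arrays read above the background level, so this size is imprecise as well.

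Of the unnamed members, 4 were at or under the background level on every sorted-cell array, so their differences are lower bounds, computed with each sorted-cell array set to its background level. Probe set 262883_at read 2.28, 4.32 and 1.84 in sorted cells and 700.3, 1289.8 and 1505 in whole roots, and was at least 35.8-fold lower in sorted cells. Its whole-root arrays spanned 2.15-fold, the widest range of any member in whole roots, with replicate 1 the lowest. Probe set 264318_at read 29.6, 22.9 and 14.1 in sorted cells and 978, 990.5 and 760.5 in whole roots, at least 29.2-fold lower. Probe set 249881_at read 11.9, 18.8 and 10.3 in sorted cells and 726, 715 and 664 in whole roots, at least 22.6-fold lower. The whole-root arrays of this last one lay within 1.09-fold of each other. Probe set 262414_at read 24.4, 8.05 and 9.21 in sorted cells and 711, 666 and 654 in whole roots, at least 21.8-fold lower.

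The other 4 unnamed members had 1 or 2 sorted-cell arrays above the background level. Probe set 247765_at read 3.43, 16.3 and 36.9 in sorted cells and 1536, 2052 and 1854 in whole roots. Its sorted-cell arrays spanned 10.8-fold, the widest range of any member in that group, and its log2 difference of -7.14 carried the largest error (SE 0.70). Only 1 of these arrays was above the background level. With the lower readings raised to that level, 247765_at was 42.3-fold lower in sorted cells. Probe set 258905_at read 52.0, 40.2 and 41.9 in sorted cells and 1804, 1746 and 1783 in whole roots, with a log2 difference of -5.32 (SE 0.19). Its whole-root arrays agreed within 1.03-fold. Probe set 261459_at read 50.5, 23.5 and 56.8 in sorted cells and 1124, 1520.1 and 1709.9 in whole roots (-5.14, SE 0.34). Probe set 261569_at read 43.6, 44.2 and 56.7 in sorted cells and 504, 641 and 559 in whole roots (-3.56, SE 0.21), the smallest log2 difference among the members.

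**Figure D1:**
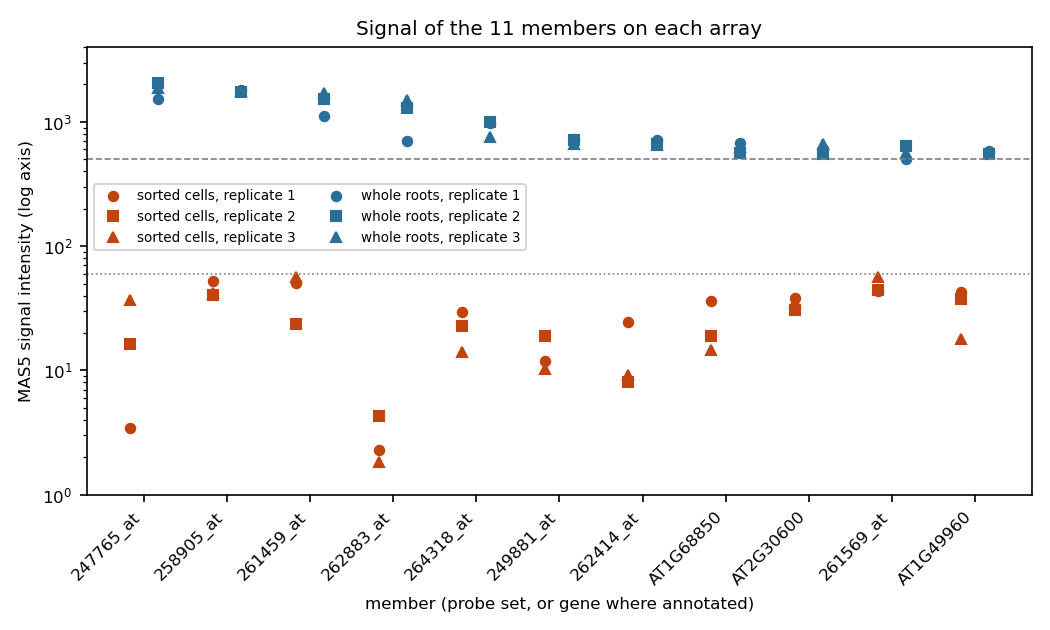
MAS5 signal intensity (log axis) of each member on the 6 arrays, with sorted cells in orange to the left of whole roots in blue and a symbol for each replicate number; the dashed line marks the whole-root threshold of 500 and the dotted line the sorted-cell threshold of 60. The sorted-cell values run from 1.84 to 56.8 and the whole-root values from 504 to 2052, and the gap between the groups is set by the rule.

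Over the 11 members the fitted log2 differences ran from -8.72 to -3.56, with a median of -5.32, against a median of -0.16 over all 13647 probe sets tested. The largest of these, for 262883_at, rests on sorted-cell readings of 1.84 to 4.32, under the background level. With the sorted-cell readings raised to the background level of their array where they were lower, the median stood at -4.50. All 11 were tested and all passed at a limma adjusted p under 0.05, where 30.7% of tested probe sets were called lower and 24.7% higher in sorted cells; the rule used the same contrast, so nothing is read from that count. With arrays scaled to the hybridisation controls, an alternative chosen after seeing the data that moved the median of all tested probe sets by -1.61, 9640 were called lower and 558 higher, in place of 4187 and 3377.

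Whether the signals were lost, as opposed to low, was checked against the background level. Of 33 sorted-cell readings of the members, 10 were above it, 0 on replicate 1, 3 on replicate 2 and 7 on replicate 3. The background level itself was highest on replicate 1 and lowest on replicate 3. Every whole-root reading was above it. Since the rule asked for sorted-cell readings under 60 and the background level of replicate 1 was 57.4, the rule all but fixed the 0 on replicate 1, and nothing is read from it. On replicates 2 and 3 together, 7 members read above the background level on 1 or both. The share of all probe sets above that level was not counted. The members' sorted-cell readings lay between percentiles 2.81 and 45.2 of all probe sets on their arrays. The data therefore show neither that the transcripts were absent nor that they were present.

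Bright root signals seldom ended so low. Of 3436 probe sets at 500 or more on every whole-root array, 1904 (55.4%) were also at 500 or more on every sorted-cell array, and 1100 (32.0%) were lower by at least 1 on the log2 scale. On every sorted-cell array 145 were under 200, 46 under 100 and 18 (0.52%) under 60. Over all probe sets other than controls the share under 60 on every sorted-cell array was 36.4%. Of those 18, the members make up 11. The 7 left out by gene name include 2 further class III peroxidase genes, AT5G14130, at 2.34, 11.6 and 25.7 in sorted cells and 744, 855 and 726 in whole roots, and AT2G35380, at 4.35, 6.22 and 23.4 in sorted cells and 603, 576 and 515 in whole roots. The opposite pattern was 500 or more on all sorted-cell arrays and under 60 on all whole-root arrays. Of 2636 probe sets at 500 or more on all sorted-cell arrays, 48 met it.

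**Figure D2:**
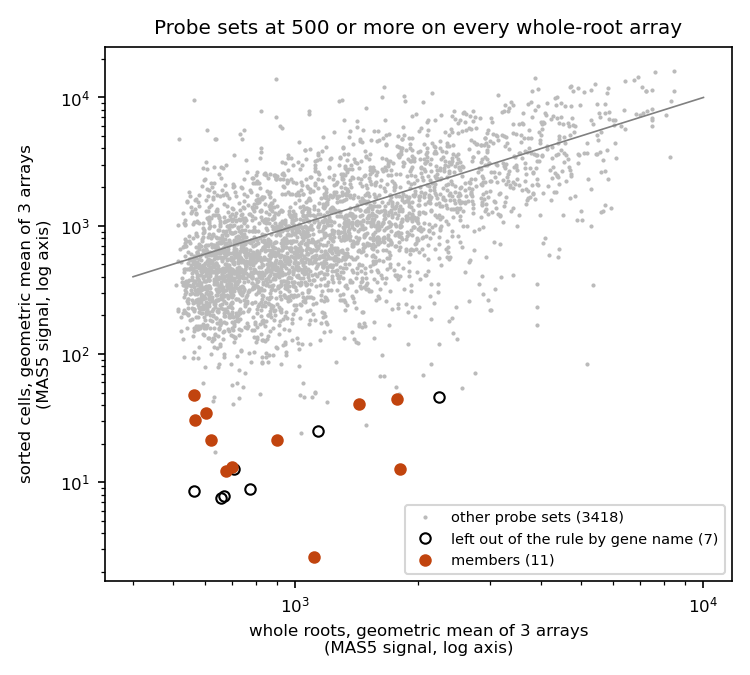
Geometric mean signal of the 3 sorted-cell arrays (vertical, log axis) against that of the 3 whole-root arrays (horizontal, log axis) for the 3436 probe sets at 500 or more on every whole-root array; orange points are the 11 members, open circles the 7 left out by gene name, grey points the others, and the line marks equal signal. The members lie at the lower edge, where the rule puts them.

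Other probe sets lay close outside both thresholds. Nearest inside the whole-root threshold was 261569_at, with a lowest whole-root reading of 504, and nearest inside the sorted-cell threshold were 261459_at and 261569_at, with highest readings of 56.8 and 56.7. Just outside the sorted-cell threshold were 258064_at, 251405_at and 257299_at, whose highest sorted-cell readings were 60.6, 61.5 and 64.5. Just outside the whole-root threshold were AT2G16750, AT5G09480 and 264643_at, whose lowest whole-root readings were 484, 469 and 461. Without sorted-cell replicate 1 the same thresholds would take 20 probe sets, the 11 members among them. After quantile normalization 12 probe sets met the rule, 9 of them members, and 261459_at and 261569_at were the 2 that did not.

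The SD of log2 values over the 3 whole-root arrays had a median of 0.14 over the members (0.024 to 0.58), equal to the 0.14 over all 3436 bright probe sets. Over the 3 sorted-cell arrays it had a median of 0.64 over the members (0.17 to 1.74) and 0.35 over the bright probe sets, of which 55.4% read 500 or more on every sorted-cell array. The rule chose the members for low sorted-cell signals and no comparison was made at matched signal, so nothing is read from this difference in spread. AT1G49960 and 258905_at had the smallest spread among whole roots, at 0.033 and 0.024, while 262883_at (0.58) and 261459_at (0.31) had the widest. No sorted-cell array was the high one for all members: 6 were highest on replicate 1, 2 on replicate 2 and 3 on replicate 3. Among whole roots 5 were highest on replicate 1, 3 on replicate 2 and 3 on replicate 3, and 4, 4 and 3 were lowest on replicates 1, 2 and 3.

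**Figure D3:**
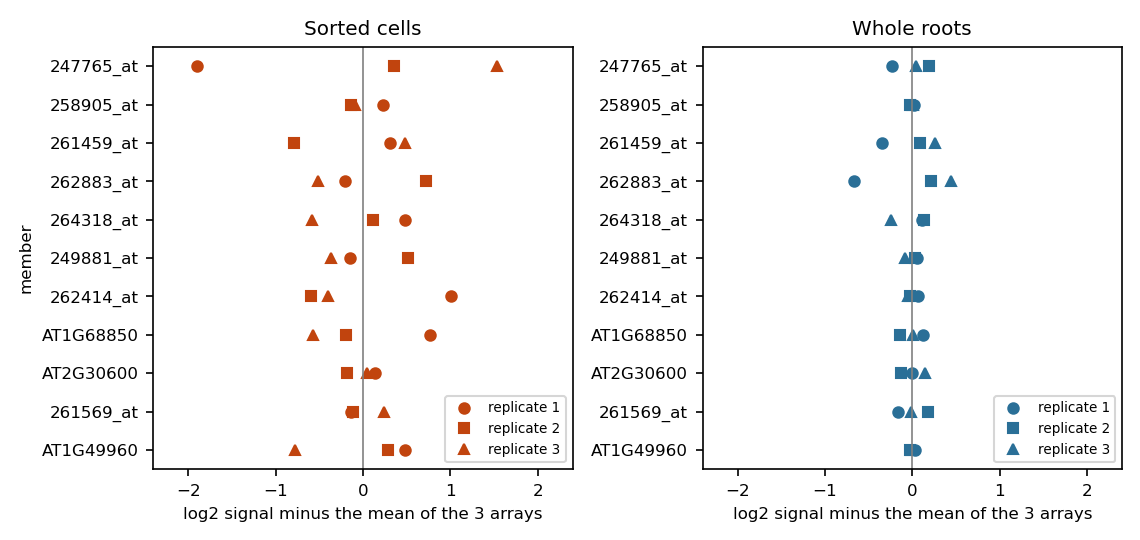
Log2 signal of each member on each array minus the mean of its 3 arrays, for sorted cells (left) and whole roots (right), with a symbol for each replicate number and the same horizontal scale. The whole-root points of 262883_at and 261459_at spread most in that group (SD 0.58 and 0.31), and the sorted-cell points of 247765_at most in theirs (SD 1.74).

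AT2G30600 is read by a second probe set that did not follow the member. Probe set 267523_at read 513, 505 and 502 in sorted cells and 893, 917 and 1103 in whole roots. It fell by 0.93 on the log2 scale (SE 0.19; limma adjusted p = 0.00283), against the -4.12 of 267524_at. Their log2 changes lay 3.19 apart, where the median over 40 genes with more than 1 tested probe set was 1.25 and 4 of the 40, AT2G30600 included, had 3.19 or more. The rule chose 267524_at for a large fall, which favours a wide gap, so nothing is read from this rank. The reference gene table gives AT2G30610 as a synonym of the same locus, and which part of the transcript each probe set reads is not given in the sources used here. The low signal of 267524_at can therefore not be taken as the level of the whole gene.

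**Figure D4:**
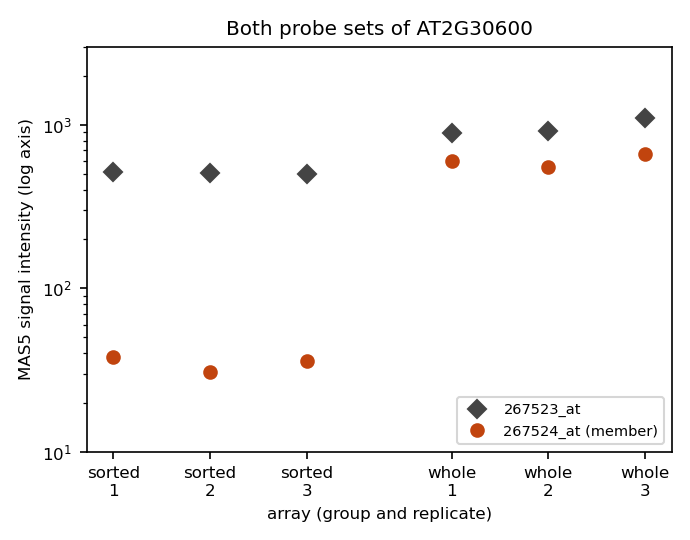
MAS5 signal intensity (log axis) of both probe sets of AT2G30600 on the 3 sorted-cell arrays (left) and the 3 whole-root arrays (right); orange circles are the member 267524_at and dark grey diamonds 267523_at. Between the groups the member differs by -4.12 and the other probe set by -0.93 on the log2 scale.

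Other class III peroxidase genes moved in both directions. Of 73 loci in the family 55 had a probe set annotated with 1 gene and 36 were tested. Of these, AT1G68850, AT5G14130 and AT2G35380 met both thresholds of the rule. Further loci may be read by probe sets without such an annotation, so these counts are minimums. Whether an unnamed member is a peroxidase is not known here. Of the other 33 tested, 13 were lower, 12 were higher and 8 did not pass. Their median log2 difference was 0.0030, and the shares stand against the 30.7% lower and 24.7% higher of all tested probe sets. With arrays scaled to the hybridisation controls the 33 held 19 lower and 2 higher, where 70.6% of all tested probe sets were lower and 4.09% higher. Their median was then -1.61, and the scaling moved the median of all tested probe sets by -1.61. AT3G49960 read 44.9, 27.8 and 61.7 in sorted cells and 284, 618 and 675 in whole roots (-3.53, SE 0.39; limma adjusted p = 0.000125). AT1G34510 read 126, 39.1 and 53.2 in sorted cells and 484, 661 and 1111 in whole roots (-3.47, SE 0.45; limma adjusted p = 0.000262). In neither gene did a sorted-cell array reach the lowest whole-root array.

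In the opposite direction AT5G24070 read 2027, 611 and 839 in sorted cells and 40.05, 25.8 and 40.6 in whole roots (4.86, SE 0.41; limma adjusted p = 3.56e-05). AT2G43480 (2.79), AT5G51890 (1.83) and AT3G28200 (1.69) rose as well, but with arrays scaled to the hybridisation controls AT5G51890 stood at 0.22 and AT3G28200 at 0.076, and neither passed. PRXR1, which averaged 5864 ± 1723 in sorted cells and 4101 ± 910.1 in whole roots (SD, n = 3 each), did not pass (0.49; limma adjusted p = 0.151); it passed as higher without sorted-cell replicate 1 (0.76), stood at -0.062 after quantile normalization and passed as lower with hybridisation control scaling (-1.12; limma adjusted p = 0.0222). The family holds close copies, whose probe sets may share signal.

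Of the 12 loci of the nucleobase-ascorbate transporter family, 5 had a probe set annotated with 1 gene, which may miss others, and all 5 were tested. Beside AT1G49960, 3 were lower and 1 did not pass, where 30.7% of all tested probe sets were lower and 24.7% higher. The median over these 4 was -1.03 on the log2 scale. AT5G49990 read 96.6, 70.0 and 104 in sorted cells and 267, 339 and 373 in whole roots (-1.86, SE 0.23; limma adjusted p = 0.00023). AT2G34190 read 97.1, 83.1 and 75.1 in sorted cells and 219, 231 and 236 in whole roots (-1.43, SE 0.20; limma adjusted p = 0.000402). In neither of these genes did a sorted-cell array reach the lowest whole-root array. For AT1G49960 the rule itself sets such a gap. AT5G62890 stood at -0.63 (limma adjusted p = 0.0326) and lost its call with median centring (0.0568), with the replicate number as a block (0.0683) and without whole-root replicate 1, 2 or 3 (0.112, 0.0707 and 0.111). AT4G38050 stood at 0.088 (limma adjusted p = 0.801).

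**Figure D5:**
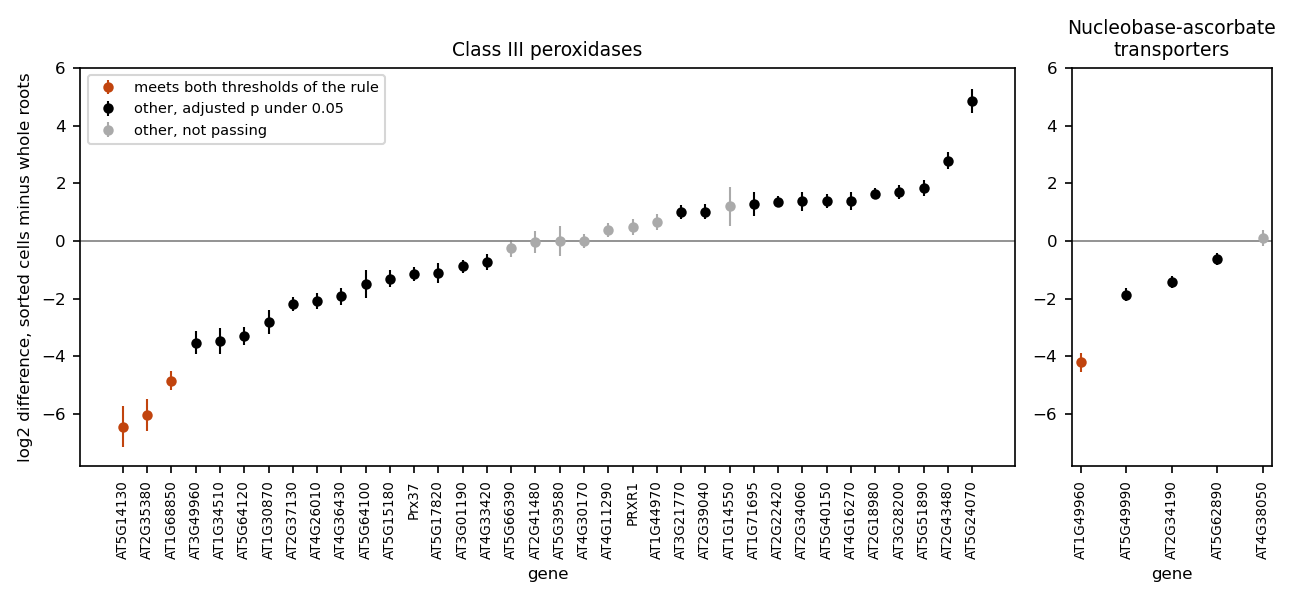
Log2 difference, sorted cells minus whole roots, with the SE of the limma fit as a bar, for the 36 tested class III peroxidase genes (left) and the 5 tested nucleobase-ascorbate transporter genes (right), ordered by size; orange marks genes that met both thresholds of the rule, black the others with an adjusted p under 0.05 and grey those that did not pass. The peroxidases run from AT5G14130 at -6.45 to AT5G24070 at 4.86, and AT1G49960 lies below the other transporters. AT5G14130 and AT1G49960 met the rule, which asks for such differences. For AT5G14130 only 1 of 3 sorted-cell arrays read above the background level, so its size and rank are imprecise. With sorted-cell readings raised to that level where lower, it was 20.5-fold lower in sorted cells, AT1G68850 19.9-fold and AT2G35380 15.4-fold.

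None of the genes found by annotation next to the 3 annotated members met the rule. Of all 22746 probe sets other than controls only 18 met both thresholds, so nothing is read from this. Among the 3 protein-coding genes on either side of each, 7 of 18 had a probe set annotated with 1 gene. Of these 7, AT2G30620 was the only one at 500 or more on every whole-root array, against 3436 of all 22746. It read 960.2, 1849 and 1235 in sorted cells and 864, 914 and 1017 in whole roots. The other 6 read no higher than 98.7 on any array. The rest of the 18 may be read by unnamed probe sets, members among them, and could not be checked.

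Markers of single cell types were few. Of 44 fixed markers 8 were found by symbol among probe sets annotated with 1 gene. The lists for non-hair epidermis, endodermis and stele had none, so the labelled tissue could be checked only in part. The annotation pairs 8730 probe sets with no gene, so markers not found may still be on the array. Both root hair markers, EXPA7 (-2.31) and EXPA18 (-3.33), expansin genes of growing hairs, fell, and their summed signal was 299 to 471 in sorted cells and 2477 to 3172 in whole roots. Of the cortex pair AT1G09750 fell (-4.19, SE 1.01; -2.74 without sorted-cell replicate 1, which read 2.06) and AT1G62510 stood at 0.012 and did not pass, with a summed signal of 143 to 328 in sorted cells and 441 to 489.6 in whole roots. The root cap gene AT1G65570 rose (4.38), to 3069 to 6875 in sorted cells against 187 to 222 in whole roots, and AGL42 of the stem cell niche did not pass (0.43). Both green tissue markers, RCA (-3.09) and LHCB4.1 (-1.64), fell, with a summed signal of 68.2 to 141 in sorted cells and 503 to 569 in whole roots. The part of these cell types in the low signals of the members was not tested.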

How the data were processed

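Signal intensities of 6 Affymetrix arrays, 3 of sorted cells and 3 of whole roots, were used as deposited. The authors made these intensities with MAS5, per the submitters' processing notes, from RNA amplified in 2 cycles, per the labels' protocols; its version and scaling target are not stated in the sources used here, and detection calls were not used here. Each array's mean after trimming 2% at either end was 250.02 or 250.03, so no further scaling was applied.

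After 64 control probe sets and, by 6-array mean, the lowest 40% of all others had been removed, 13647 remained. Their log2 values were tested with limma 3.58.1 under R 4.3.3 (lmFit, then eBayes allowing the prior variance to follow the mean signal; sorted cells minus whole roots; Benjamini-Hochberg, adjusted p under 0.05). The fit was tested on simulated data. Python 3.11.15 with pandas 2.3.3, numpy 2.4.6 and matplotlib 3.10.9 gave the remaining values and the plots. Of 22810 probe sets, 13513 pair with 1 gene, 503 with several and 8730 with none in the platform annotation; 13436 of the 13513 matched the reference gene table (assembly TAIR10.1), used for names and neighbours only.

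The members, lists and tests were chosen with earlier results of these data known. None of 17 lists of symbols fixed at the start held an annotated member. The 3 annotated members carry locus names only, so lists of symbols could hardly hold them. Both families were therefore listed whole by locus after the values were seen. The rule for naming took the members, up to 4 called genes of each family in either direction by size of change, the brightest uncalled one, and the 3 probe sets just outside each threshold. Where all 3 sorted-cell arrays read at or under the brightest of 27 bacterial controls, the difference is a bound: the whole-root mean log2 signal is set against, per sorted-cell array, whichever was higher of the control level and the probe set's signal. Alternatives were quantile normalization, median centring or scaling, offsets of 16 and 64, other filters (none, 60%), thresholds (1000, 40, or 400 with 80) and a 2-fold call, a replicate block, leaving out each array in turn and, chosen after seeing the data, scaling to 18 hybridisation controls.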

Additional observations from a re-analysis of the deposited data

How the results depend on the processing

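The number of members depended on the thresholds and on scaling. It was 3 with whole roots at 1000 or more, 7 with sorted cells under 40, 35 with thresholds of 400 and 80, and 64 with arrays scaled to the hybridisation controls, where sorted-cell signals are lower by construction; it was 12 after quantile normalization and 10 with a common median, and ran from 12 to 20 with one array left out, a looser rule by construction. The median log2 difference of the members, -5.32, moved to -4.61 with an offset of 16, -3.30 with 64, -4.50 with sorted cells raised to the background level and -6.94 with hybridisation control scaling, and ran from -5.44 to -5.25 with one array left out. Over all tested probe sets, calls under hybridisation control scaling were 9640 lower and 558 higher; under the other alternatives they ran from 2883 to 4549 lower and 2270 to 4014 higher. Deviations of same-numbered arrays from their group means correlated at -0.29, -0.16 and -0.042, so the numbers were not taken to pair the samples; with the replicate number as a block 3747 were lower and 3068 higher, and of 22 probe sets refitted under each alternative, which do not include the members, AT5G62890 alone lost its call (-0.63). Of these 22, 15 kept direction and call under all alternatives run. Signs turned for genes near 0: PRXR1 at -0.062 with quantile normalization, AT4G38050, which ran from -0.029 (without sorted-cell replicate 1) to 0.28 with one array left out and stood at -0.016 without whole-root replicate 2, and AT1G62510, at -0.031 with median centring and from -0.43 (without sorted-cell replicate 1) to 0.36 with one array left out, with -0.044 and -0.0058 without whole-root replicates 1 and 3. With hybridisation control scaling 4 probe sets not called in the values as deposited passed as lower by limma: PRXR1 at -1.12 (adjusted p = 0.0222), AT4G38050 at -1.53 (0.00336), AT1G62510 at -1.60 (0.00223) and AGL42 at -1.18 (0.0286). Signals near the background level limit the size of every difference given for the members.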
